A study of Mus musculus with 4 samples.

Results

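The mouse mitochondrial genome codes for 13 proteins, all of them subunits of the respiratory chain or of ATP synthase. The RNA of these 13 genes (symbols starting with mt-) was followed in naive mouse embryonic stem cells that differed in the level of the long noncoding RNA Lncenc1. The members were the rows of the deposited table whose Ensembl gene identifier maps to an mt- symbol, 13 of 19840 genes. The GENCODE M21 annotation holds 24 more mt- genes, 22 for transfer RNAs and 2 for ribosomal RNAs, which were not analysed here. Of the members, 12 are read from the heavy strand and 1, mt-Nd6, from the light strand.

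Cells were kept in 2i/LIF, a medium that holds them in the naive ground state, infected with a lentivirus, and selected with puromycin for 2 days before total RNA was depleted of ribosomal RNA and sequenced. The lentivirus carried a hairpin against Lncenc1 (shLincenc1 in the labels) in 2 libraries and a control hairpin (shCtrl) in 2 libraries. The growth protocol names 2 embryonic stem cell lines, E14TG2a and R1, and no label ties a library to one of them or to one of the 2 hairpins designed per gene. Whether the libraries within a group derive from separate cultures is not stated, so every spread given here may be technical. The table holds 1 comparison and does not say which group was on top of the fold change. The groups are therefore named by their Lncenc1 level, as the Lncenc1-low group (libraries L1 and L2) and the Lncenc1-high group (H1 and H2). Lncenc1 had 2126 and 2121 normalized reads in L1 and L2, against 6400 and 7250 in H1 and H2. Its log2 fold change in the authors' deposited table was 1.68 ± 0.19 (SE), with a DESeq2 adjusted p of 2.67e-16. The Lncenc1-low libraries would be those with shLincenc1 provided that the hairpin worked, and because Lncenc1 named the groups its level is no check of the knockdown. Fold changes keep the deposited direction, Lncenc1-high over Lncenc1-low, so a negative log2 value means a higher level in the Lncenc1-low group.

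For each of the 19840 genes the whole number of reads in every library was worked out from the table. They summed to 12769925 in L1 and 11919216 in L2, against 30661258 in H1 and 12614223 in H2. A normalized read is a read divided by the size factor of its library, a scale that makes the depths comparable. The 7 embryonic stem cell markers looked at (Pou5f1, Sox2, Nanog, Zfp42, Klf4, Esrrb and Tfcp2l1) were abundant in all 4 libraries, with summed levels of 59642 and 56549 normalized reads in L1 and L2, against 69741 and 66295 in H1 and H2. In the authors' deposited table every one of the 7 had a positive log2 fold change, against 49.4% of all genes tested. Both Lncenc1-high libraries lay above both Lncenc1-low libraries for 6 of the 7, against 20.6% of all genes tested. DESeq2 called 0 at an adjusted p under 0.05, against 1.53% of all genes tested. At an unadjusted p under 0.05 there was 1, against 8.82%, Nanog at 0.41 ± 0.20 (SE). Its log2 fold change became 0.21 without L2 and 0.64 without L1 in a negative binomial refit. Limma voom also called 0, with 2 at an unadjusted p under 0.05, where it called 8 of all 14070 genes tested. Of 7 fibroblast markers 4 were analysed here (Col1a1, Col1a2, Col3a1 and Thy1), and they summed to 50.5 and 48.2 normalized reads in L1 and L2, against 21.0 and 26.3 in H1 and H2. Thy1 had 40.7 and 18.5 normalized reads in L1 and L2, against 10.3 and 12.5 in H1 and H2, and thus made up most of the sum in L1. Col1a1, Col1a2 and Col3a1 overlapped between the groups. Col3a1 had 0 reads in L2 and in H2. The part of either cell type in the values below was not tested, and in such bulk RNA fewer cells of a type cannot be told apart from less RNA per cell.

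Mitochondrial DNA is transcribed by its own polymerase, POLRMT, with the factors TFAM and TFB2M, into long RNAs that span nearly a whole strand. These precursors are cut mainly at the transfer RNAs that lie between the coding genes, and the stability of each freed mRNA then helps to set its level. Nearly all coding genes are read from the heavy strand, while the light-strand RNA carries mt-Nd6 and several transfer RNAs and is otherwise mostly degraded. The proteins join nuclear-encoded subunits in complex I (mt-Nd1 to mt-Nd6 and mt-Nd4l), complex III (mt-Cytb), complex IV (mt-Co1 to mt-Co3) and complex V, the ATP synthase (mt-Atp6 and mt-Atp8).

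The strands differ in base composition, and the mRNAs show it. In GENCODE M21 the mt-Nd6 transcript holds 28.1% G and 5.97% C, while the 12 heavy-strand transcripts hold 5.88% to 16.1% G and at least 22.1% C. The first 60 bases of mt-Nd6 and of mt-Co1, the most abundant heavy-strand mRNA, are shown for this contrast, 5′ to 3′ with G in capitals, and hold 12 and 6 of them.
mt-Nd6: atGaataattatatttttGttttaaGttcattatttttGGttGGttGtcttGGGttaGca
mt-Co1: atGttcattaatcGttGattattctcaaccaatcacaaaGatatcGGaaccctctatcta

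The genome is so compact that some genes overlap. The end of mt-Atp8, a small subunit of the ATP synthase, is also the start of mt-Atp6, which codes for its proton channel subunit, and the end of mt-Nd4l overlaps the start of mt-Nd4 in the same way. Both short transcripts are shown whole because their levels relative to these neighbours are compared further on, with the shared bases in capitals. They number 43 of 204 bases in mt-Atp8 and 7 of 297 in mt-Nd4l.
mt-Atp8: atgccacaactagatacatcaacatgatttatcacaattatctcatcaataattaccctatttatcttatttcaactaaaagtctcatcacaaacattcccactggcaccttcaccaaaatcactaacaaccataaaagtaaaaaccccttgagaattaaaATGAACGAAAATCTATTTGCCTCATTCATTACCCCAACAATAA
mt-Nd4l: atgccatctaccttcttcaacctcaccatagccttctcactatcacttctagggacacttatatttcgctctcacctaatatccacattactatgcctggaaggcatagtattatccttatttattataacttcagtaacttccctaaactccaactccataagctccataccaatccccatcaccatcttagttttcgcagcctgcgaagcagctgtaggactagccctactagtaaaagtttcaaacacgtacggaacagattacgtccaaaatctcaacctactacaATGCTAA

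The last 14 bases of mt-Nd6 pair with the last 14 of mt-Nd5, since the genes run toward each other on opposite strands. The final 60 bases of each transcript are shown with that stretch in capitals, because reads there belong to one gene or the other only by their strand. The libraries were strand-specific, per the labels' protocols, and whether counting used the strand is not given in the sources used. This limit reaches beyond the shared stretch. The precursors span nearly a whole strand, so heavy-strand RNA also runs antisense to all of mt-Nd6. If counting ignored the strand, mt-Nd6 reads could include it.
mt-Nd6: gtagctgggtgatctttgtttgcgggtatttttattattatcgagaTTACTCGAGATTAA
mt-Nd5: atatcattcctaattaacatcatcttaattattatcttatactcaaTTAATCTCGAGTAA

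Per length, the mRNAs of complex IV were the most abundant. As the mean over all 4 libraries, mt-Co1, the catalytic subunit of cytochrome oxidase, had 135290 normalized reads per kilobase. It was followed on the same scale by mt-Co3 at 100242 and mt-Co2, which carries the copper site that takes electrons from cytochrome c, at 31131. Next came mt-Nd3 at 20722, mt-Atp6 at 13989 and mt-Nd1 at 6628 normalized reads per kilobase. The other 7 lay between 697 (mt-Nd4l) and 3699 (mt-Atp8), with the light-strand mRNA mt-Nd6 at 1824, mt-Nd2 at 1779 and mt-Nd4 at 1524. Libraries overlapped among these last 3, at 1257 to 2650 for mt-Nd6, 1378 to 2013 for mt-Nd2 and 1079 to 1742 for mt-Nd4. Their order is thus not set beyond the spread. The lengths include bases shared with a neighbour. Over its own bases only, mt-Atp8 would stand at 4687 and mt-Nd4l at 714, provided that no read in the overlap was counted. Reads per kilobase thus differed widely between genes of the heavy strand, with mt-Co1 at 194 times mt-Nd4l. mt-Atp8 overlaps mt-Atp6 and mt-Nd4l overlaps mt-Nd4, so a gap within such a pair need not be a gap between separate mRNAs. The 3 mRNAs of complex IV held 89.9% and 90.1% of mitochondrial mRNA reads in L1 and L2, against 90.1% and 90.6% in H1 and H2.

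**Figure D1:**
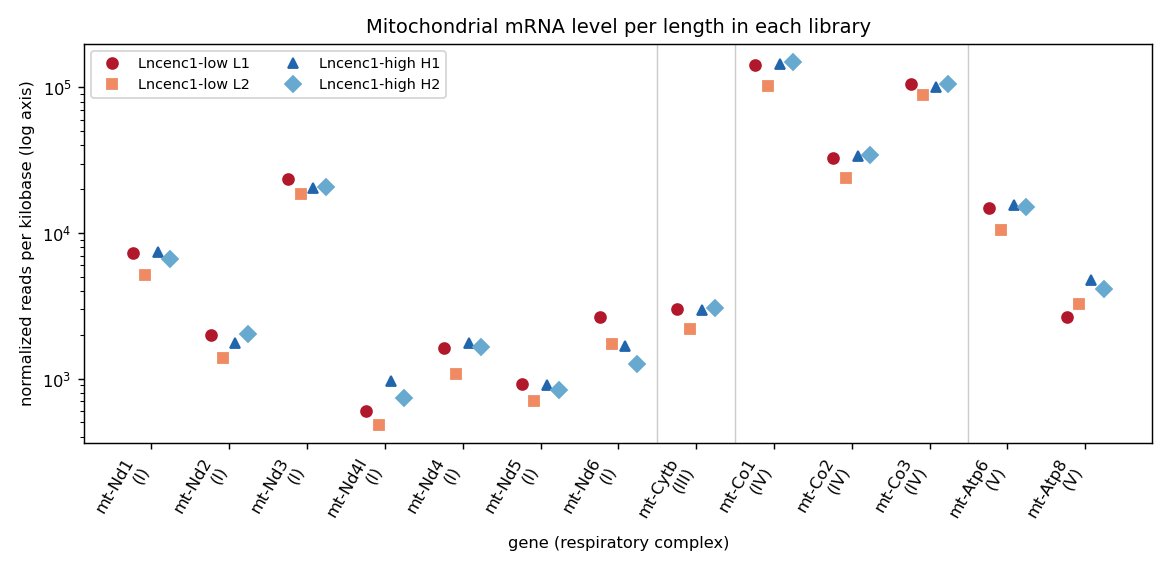
Normalized reads per kilobase (log axis) of the 13 mitochondrial genes in each library, with red symbols for the Lncenc1-low and blue for the Lncenc1-high group. The mRNAs of complex IV stand highest and mt-Nd4l lowest, at means of 135290 for mt-Co1 and 697 for mt-Nd4l.

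Nuclear copies of mitochondrial DNA can take or hide reads, and they touch members unequally. Stretches of 50 bases were looked up in all other GENCODE M21 transcripts, on both strands, and 14 nuclear gene models shared at least 1 with a member. All or nearly all such stretches recurred for mt-Co2 (100%), mt-Co3 (99.9%, in Gm28437), mt-Atp6 (99.5%), mt-Nd4l (98.8%) and mt-Nd3 (98.0%). The share was 62.2% for mt-Nd4, 51.1% for mt-Co1, 8.19% for mt-Nd2 and 7.61% for mt-Nd5. No such stretch was found for mt-Nd1, mt-Cytb, mt-Atp8 or mt-Nd6, where copies outside annotated transcripts were not searched. Levels of the copied genes are uncertain to the extent that counting split or dropped reads that fit both places, and how such reads were handled is not stated in those sources. The 14 gene models themselves were not analysed here.

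None of the 13 members passed the test between the groups. DESeq2 in the authors' deposited table called 0 of 13 at an adjusted p under 0.05, where it called 1.53% of all 14070 genes tested, and the lowest adjusted p among the members was 0.296. At an unadjusted p under 0.05 there were 2, against 8.82% of all genes tested, namely mt-Atp8 and mt-Nd6. Limma voom gave 0 calls among the members, and 8 over all 14070 genes tested. Its 2 members with an unadjusted p under 0.05 were mt-Atp8 and mt-Nd4l, while mt-Nd6 had an unadjusted p of 0.0611. The authors' deposited table gives 11 of the 12 heavy-strand genes a positive log2 fold change, with a median of 0.24, beside 49.4% positive and a median of -0.01 over all genes tested. These genes share precursors and libraries, so they are not independent of each other. Both Lncenc1-high libraries lay above both Lncenc1-low libraries for 6 members, against 20.6% of all genes tested, and the reverse held for 1, mt-Nd6, against 20.7%. The groups thus did not overlap for 7 of 13 members, where 41.3% of all genes tested had no overlap.

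**Figure D2:**
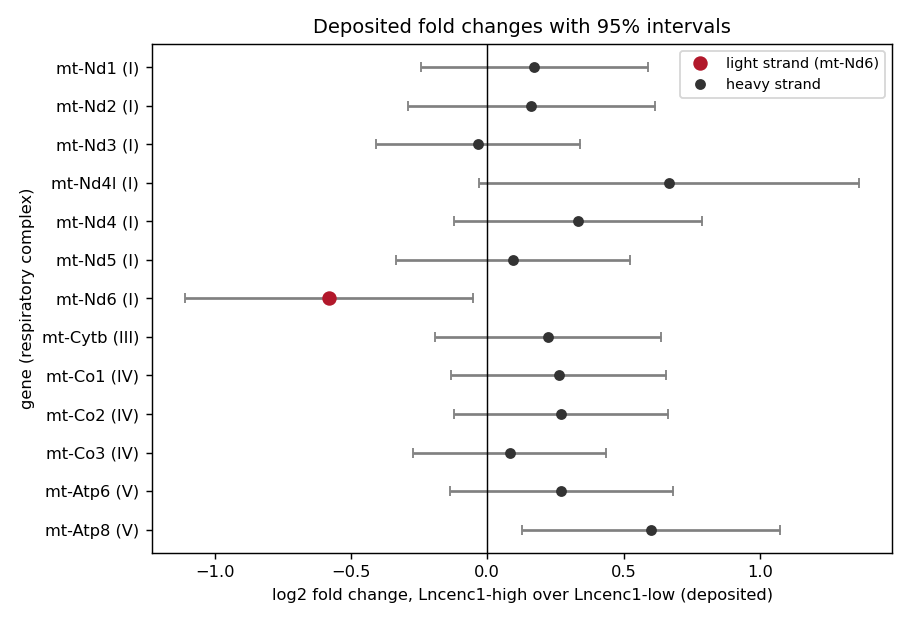
Deposited log2 fold change of each mitochondrial gene, Lncenc1-high over Lncenc1-low, with bars for its 95% interval. The intervals of mt-Atp8 (0.13 to 1.07) and mt-Nd6 (-1.11 to -0.05) leave out 0, and those of the other 11 genes include it.

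For most heavy-strand genes L2 was low while L1 was near the Lncenc1-high libraries. In complex IV, mt-Co1 had 221250 and 158895 normalized reads in L1 and L2, against 225415 and 230534 in H1 and H2. L1 thus lay close to the Lncenc1-high libraries and L2 well under them, without overlap of the groups. The authors' deposited table gives mt-Co1 a log2 fold change of 0.26 ± 0.20 (SE) with a DESeq2 adjusted p of 0.866. The same order held for mt-Co2, with 22336 and 16255 normalized reads in L1 and L2, against 23118 and 23464 in H1 and H2. For mt-Co3, the third core subunit of the oxidase, L1 was the highest library, with 83193 and 69483 normalized reads in L1 and L2, against 78775 and 82910 in H1 and H2.

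In complex III and for mt-Atp6 of the ATP synthase L2 was again the lowest library. The mRNA of cytochrome b, mt-Cytb, had 3425 and 2490 normalized reads in L1 and L2, against 3401 and 3506 in H1 and H2, so the groups overlapped. For mt-Atp6 the values were 10162 and 7099 in L1 and L2, against 10557 and 10289 in H1 and H2. Here L1 fell just short of the Lncenc1-high libraries, and the authors' deposited table gives a log2 fold change of 0.27 ± 0.21 (SE) with a DESeq2 adjusted p of 0.868.

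The complex I subunits of the heavy strand code for membrane proteins of the arm that pumps protons. For mt-Nd1, which lies where that arm meets the part that reduces ubiquinone, the values were 6981 and 4948 normalized reads in L1 and L2, against 7126 and 6315 in H1 and H2. For mt-Nd2 they were 2056 and 1430 in L1 and L2, against 1809 and 2090 in H1 and H2. L1 lay between the Lncenc1-high libraries for both genes, and L2 lay under them. For mt-Nd4, a pump subunit like mt-Nd2 and mt-Nd5, all libraries of the Lncenc1-low group were under the others, with 2232 and 1487 normalized reads in L1 and L2, against 2401 and 2281 in H1 and H2. For mt-Nd5 L1 was the highest library, with 1667 and 1283 normalized reads in L1 and L2, against 1638 and 1512 in H1 and H2. It was likewise the highest for mt-Nd3, with 8116 and 6473 normalized reads in L1 and L2, against 7035 and 7220 in H1 and H2. The authors' deposited table gives mt-Nd3 a log2 fold change of -0.03 ± 0.19 (SE), the 1 negative value among heavy-strand genes.

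Set against the mean of the Lncenc1-high libraries, the median heavy-strand gene stood at 0.983 in L1 and at 0.724 in L2, while the median over all genes tested was 0.992 in L1 and 0.997 in L2. In L2 all 12 heavy-strand genes were under both Lncenc1-high libraries, at 0.565 to 0.908 of their mean. Without L2 the log2 fold changes of mt-Nd1, mt-Nd2, mt-Co3 and mt-Nd5 turned negative in a negative binomial refit, at -0.055, -0.077, -0.041 and -0.082, and the median over the 13 members was 0.01. Without L1 the median was 0.46 and 12 members were positive.

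**Figure D3:**
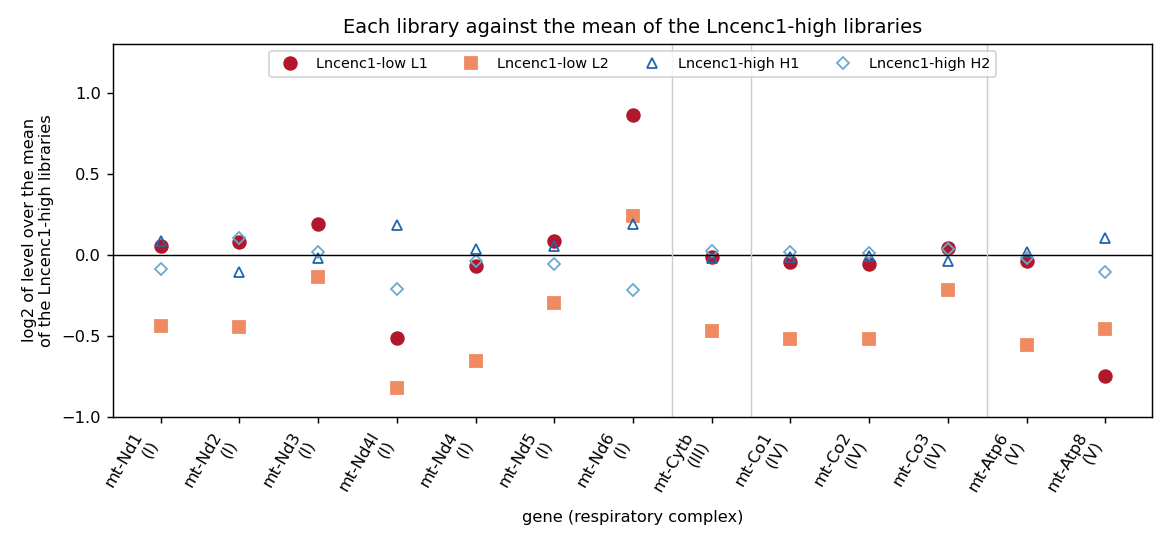
Log2 of each normalized level over the mean of the 2 Lncenc1-high libraries, for the 13 genes by complex, with filled red symbols for L1 and L2 and open blue ones for H1 and H2. L2 is under 0 for all 12 heavy-strand genes, L1 is near 0 for most of them, and mt-Nd6 is above 0 in both.

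The mitochondrial mRNAs as a whole made up 2.31% of all reads in L1 (95% Wilson interval 2.30% to 2.32%) and 1.84% in L2 (1.84% to 1.85%). The share was 2.31% in H1 (2.30% to 2.31%) and 2.35% in H2 (2.34% to 2.36%). The group means were 2.08% ± 0.33 in the Lncenc1-low and 2.33% ± 0.029 in the Lncenc1-high group (SD, n = 2 each), and the groups overlapped, since L1 was above H1. These intervals cover counting error only. No p is given for this or for the sums and ratios that follow, since 2 libraries against 2 cannot give an exact two-sided permutation p under 0.333.

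By complex, the sums differed by less than the gap between L1 and L2. The 7 genes of complex I summed to 22604 and 16659 normalized reads in L1 and L2, against 21160 and 20289 in H1 and H2, with the groups overlapping. Complex IV summed to 326778 and 244633 in L1 and L2, against 327309 and 336907 in H1 and H2, and complex V to 10703 and 7759 in L1 and L2, against 11531 and 11132 in H1 and H2. For complexes IV and V the groups did not overlap, by a margin in complex IV of 326778 in L1 against 327309 in H1. The log2 ratio of group means, Lncenc1-high over Lncenc1-low, was 0.08 for complex I, 0.22 for complex III, 0.22 for complex IV and 0.30 for complex V. Without L2 these became -0.13, 0.01, 0.02 and 0.08.

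The light-strand gene had a fold change of the opposite sign. mt-Nd6, a membrane subunit of complex I, had 1375 and 895 normalized reads in L1 and L2, against 863 and 652 in H1 and H2. Both Lncenc1-low libraries lay above both Lncenc1-high libraries, L2 by a small margin over H1. The authors' deposited table gives a log2 fold change of -0.58 ± 0.27 (SE), a DESeq2 p of 0.0310 and an adjusted p of 0.469, so the difference did not pass over all genes. It ranged from -0.86 without L2 to -0.24 without L1 in the refit.

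Within a library, the ratio of mt-Nd6 to the heavy-strand mRNAs does not depend on the scaling between libraries. It stands for the light strand only if counting used the strand, which is not stated. There were 3.80 and 3.31 mt-Nd6 reads per 1000 heavy-strand mRNA reads in L1 and L2, against 2.38 and 1.76 in H1 and H2. The groups did not overlap, with means of 3.55 ± 0.35 in the Lncenc1-low and 2.07 ± 0.44 in the Lncenc1-high group (SD, n = 2 each), a 1.73-fold difference. As a share of all mitochondrial mRNA reads, mt-Nd6 held 0.378% in L1 (95% Wilson interval 0.357% to 0.401%) and 0.330% in L2 (0.306% to 0.354%). In H1 it held 0.238% (0.227% to 0.249%) and in H2 0.175% (0.161% to 0.191%). The gap between H1 and H2 thus also exceeded counting error.

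The library pattern behind this ratio differed within the Lncenc1-low group. In L1 the heavy-strand mRNAs stood near the Lncenc1-high level and mt-Nd6 at 1.81 times it, and in L2 mt-Nd6 stood at 1.18 times that level and the heavy-strand mRNAs lower. L1 exceeded L2 by 1.54-fold for mt-Nd6 and by 1.39-fold for mt-Co1. Against each of the 12 heavy-strand genes alone, the ratio of mt-Nd6 was higher in both Lncenc1-low libraries than in both Lncenc1-high ones, comparisons that all share the mt-Nd6 reads. mt-Nd6 by itself had that order, as had 20.7% of all genes tested, and its ratio to nuclear genes was not examined. Against mt-Nd5, its overlapping neighbour on the other strand, there were 82.5 and 69.7 mt-Nd6 reads per 100 in L1 and L2, against 52.7 and 43.2 in H1 and H2. Against the 3 heavy-strand genes with no copied stretch (mt-Nd1, mt-Cytb and mt-Atp8), there were 126 and 110 mt-Nd6 reads per 1000 in L1 and L2, against 75.1 and 61.2 in H1 and H2.

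Both short genes that overlap a longer neighbour had the largest positive fold changes among the members. mt-Atp8 had 541 and 660 normalized reads in L1 and L2, against 974 and 843 in H1 and H2. The groups did not overlap, and L1 rather than L2 was the lowest library, unlike for the other heavy-strand genes. The authors' deposited table gives a log2 fold change of 0.60 ± 0.24 (SE), a DESeq2 p of 0.0131 and an adjusted p of 0.296. mt-Nd4l had 177 and 143 normalized reads in L1 and L2, against 288 and 220 in H1 and H2, again without overlap. Its log2 fold change in the authors' deposited table was 0.67 ± 0.36 (SE), with a DESeq2 adjusted p of 0.613, and it rested on 144 and 116 reads in L1 and L2, against 561 and 175 in H1 and H2.

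Relative to the longer neighbour, neither short gene separated the groups. There were 5.32 and 9.30 mt-Atp8 reads per 100 mt-Atp6 reads in L1 and L2, against 9.23 and 8.19 in H1 and H2, so L1 was low and L2 was the highest. For mt-Nd4l there were 7.95 and 9.64 reads per 100 mt-Nd4 reads in L1 and L2, against 12.0 and 9.63 in H1 and H2. L1 was the lowest and H1 the highest, and the groups overlapped for both ratios. The lower normalized reads of mt-Atp8 in L2 were shared with mt-Atp6, while those in L1 were not. mt-Atp8 rested on 439 and 534 reads in L1 and L2, against 1898 and 672 in H1 and H2. It shares bases with mt-Atp6, and how reads in the overlap were counted is not stated. The ratios therefore need not reflect separate RNAs.

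**Figure D4:**
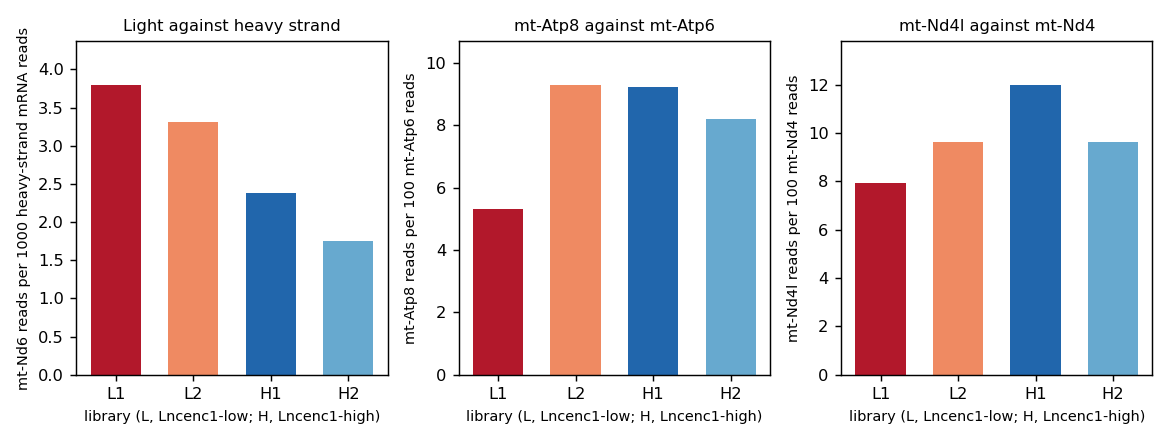
Ratios of reads within each library: mt-Nd6 per 1000 heavy-strand mRNA reads, mt-Atp8 per 100 mt-Atp6 reads and mt-Nd4l per 100 mt-Nd4 reads, 1 bar per library. For mt-Nd6 both Lncenc1-low bars (3.80 and 3.31) stand above both Lncenc1-high bars (2.38 and 1.76), and the other ratios overlap between groups with L1 lowest.

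The nuclear genes that copy, transcribe and process mitochondrial DNA held no called gene, where 1.53% of all genes tested were called. At that share 0 calls do not set lists of this size apart. Of 18 genes for copying and transcription, DESeq2 in the authors' deposited table called 0. At an unadjusted p under 0.05 there were 0, against 8.82% of all genes tested. The log2 fold changes were positive for 9 and negative for 9, with a median of -0.02. POLRMT and TFAM act on both strands, and their genes are named here for that role and after their values were seen. Polrmt had 428 and 551 normalized reads in L1 and L2, against 430 and 403 in H1 and H2, and Tfam had 1050 and 816 in L1 and L2, against 714 and 846 in H1 and H2, so both overlapped between the groups. Of 33 genes for processing and turnover of mitochondrial RNA, DESeq2 in the authors' deposited table called 0, with 21 positive and 12 negative log2 fold changes and a median of 0.04. Limma voom, which called 8 of all 14070 genes tested, also called 0 of either list. It had 0 of 18 and 4 of 33 at an unadjusted p under 0.05.

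In the deposited test 3 of these 33 had an unadjusted p under 0.05, a share near the 8.82% of all genes tested, and 0 were called. Each of the 3 had both Lncenc1-low libraries above both Lncenc1-high libraries, as had 20.7% of all genes tested. The 3 were picked by their p in these same libraries, so that order is no separate support. Elac2 codes for the enzyme that cuts the 3′ ends of transfer RNAs out of the precursor, with 2149 and 1507 normalized reads in L1 and L2, against 1263 and 1334 in H1 and H2. Trnt1 codes for the enzyme that adds the CCA end, and had 1675 and 1770 in L1 and L2, against 1248 and 1286 in H1 and H2. Gtpbp3, whose protein works with that of Mto1 to modify mitochondrial transfer RNAs, had 426 and 502 in L1 and L2, against 311 and 291 in H1 and H2. Elac2 had a log2 fold change of -0.49 ± 0.23 (SE), Trnt1 of -0.44 ± 0.20 and Gtpbp3 of -0.62 ± 0.28 in the authors' deposited table, and their DESeq2 adjusted p were 0.476, 0.445 and 0.427. Without L1 the log2 fold change of Elac2 became -0.21 in the refit. Genes of the 5′ processing enzyme (Trmt10c, Hsd17b10 and Prorp) and of the complex that keeps mitochondrial mRNAs stable (Lrpprc and Slirp), chosen here after their values were seen, lay between -0.08 and 0.20 in log2 fold change in the authors' deposited table. Of 7 tested regulators of respiratory genes, such as Nrf1 and Gabpa, DESeq2 in the authors' deposited table called 0, against 1.53% of all genes tested. At an unadjusted p under 0.05 there were also 0, against 8.82%, and the median log2 fold change was 0.12. Limma voom gave the same counts of 0.

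The nuclear partners in the same complexes were taken by symbol, and whether each product, that of Ndufa4l2 among them, belongs to that complex was not examined. DESeq2 in the authors' deposited table called 0 of complexes III and V, with 0 and 1 at an unadjusted p under 0.05. In the authors' deposited table the median log2 fold change was 0.07 over 37 genes of complex I, 0.01 over 9 of complex III, 0.19 over 14 of complex IV and 0.10 over 17 of complex V, beside -0.01 over all genes tested. DESeq2 in the authors' deposited table called 1 of complex I by symbol, Ndufa4l2, a paralog of Ndufa4, and 1 of complex IV, Cox5a, against 0.505% of all genes tested in the direction of the first and 1.02% in that of the second. Cox5a had 934 and 703 normalized reads in L1 and L2, against 369 and 472 in H1 and H2, higher in the Lncenc1-low group, while the mitochondrial mRNAs of the same complex had positive fold changes, none of them called. Ndufa4l2 had 27.1 and 29.7 in L1 and L2, against 96.0 and 128 in H1 and H2. For Cox5a the authors' deposited table gives a log2 fold change of -0.97 ± 0.27 (SE) with a DESeq2 adjusted p of 0.0280, and for Ndufa4l2 it gives 1.97 ± 0.56 (SE) with 0.0337. Limma voom called neither, with adjusted p of 0.223 for Cox5a and 0.295 for Ndufa4l2, nor any other nuclear subunit. It called 8 of all 14070 genes tested, so its lack of calls says little about these genes. In the refit with any 1 of the 4 libraries left out the directions held. The log2 fold changes were then -1.16 to -0.75 for Cox5a and 1.76 to 2.17 for Ndufa4l2. At an unadjusted p under 0.05 were 1 of 37 genes of complex I, 0 of 9 of complex III, 3 of 14 of complex IV and 1 of 17 of complex V, against 8.82% of all genes tested. Beside both called genes these were Cox7a2l, Cox6b1 and Atp5s, each with both Lncenc1-high libraries above both Lncenc1-low libraries, an order that 20.6% of all genes tested had. A low p in these same libraries picked the genes, so that order is no separate support. Cox7a2l, whose protein helps join complexes III and IV into supercomplexes, had 1428 and 1351 normalized reads in L1 and L2, against 1951 and 1928 in H1 and H2. Cox6b1, a subunit on the side of complex IV that faces cytochrome c, had 1771 and 1226 in L1 and L2, against 2207 and 2169 in H1 and H2. Its log2 fold change in the refit was 0.55 with all libraries, 0.31 without L2 and 0.84 without L1. Atp5s, placed here by its symbol, had 53.0 and 33.4 in L1 and L2, against 83.2 and 115 in H1 and H2. DESeq2 in the authors' deposited table gives these 3 adjusted p of 0.324, 0.340 and 0.476.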

How the data were processed

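Strand-specific libraries were made from 4 samples of total RNA without ribosomal RNA, as the labels' protocols state. TopHat2, HTSeq, DESeq2 1.8.2 and the build mm9 are listed in the submitters' processing notes, with no settings. Per the file headers, the deposited mean is a signal that the authors averaged over the 4 libraries once each was divided by its size factor. The log2 fold change, its standard error, the Wald score and the p-values were also computed by the authors. The main test is the authors' own DESeq2 comparison, adjusted over 14070 genes.

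Reads per library were recovered after the file was seen. Each mean is a sum of 4 whole counts times fixed steps, and the steps were read from recurring low values. Count sets that gave a mean to 15 digits were refitted with the algorithm of the authors' tool, rewritten in Python 3.11.15. A set was accepted when its log2 fold change and the deposited value differed by at most 1e-10 and any other set differed by over 10 times more. This gave counts for 19840 of 19840 genes, with a largest gap of 1.91e-14 and a smallest gap of the next set of 2.86e-10. The size factors were 0.811 for L1, 0.809 for L2, 1.95 for H1 and 0.797 for H2. Recovery and tests were checked on simulated data.

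Alternatives were a negative binomial refit at the dispersions implied by the deposited errors (library totals, totals without mitochondrial genes, leaving out each library, where a lone library is assumed to vary like the others), voom in limma 3.58.1 and no filter on low means. Symbols matched 19707 of 19840 identifiers. Sequences and lengths came from GENCODE M21 (GRCm38), another build than the authors', so no coordinates are given. Members and lists were chosen with earlier results of these data known. All members are named, and of each nuclear list those with an unadjusted p under 0.05, at most 6. The voom counts within the nuclear lists, and the fits without 1 library for their named genes, were added after seeing the data.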

Additional observations from a re-analysis of the deposited data

How the results depend on the processing

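In the alternatives on all 4 libraries (library totals, totals without the mitochondrial genes, limma voom and no filter) 0 mitochondrial genes were called. Over all genes tested they called 239 of 14065, 240 of 14065, 8 of 14070 and 178 of 19840, in that order. With so few called anywhere, 0 of 13 does not set the members apart. For fits without 1 library only fold changes are given, since 1 library then stood alone in its group. Over the 13 genes, 86 of 91 alternative fold changes kept their sign. The 5 that changed sign were mt-Nd1 (leaving out 1 library gave -0.055 to 0.44), mt-Nd2 (-0.077 to 0.45), mt-Co3 (-0.041 to 0.22) and mt-Nd5 (-0.082 to 0.30), each without L2, and mt-Nd3 (-0.19 to 0.14), without L1. The summed reads of complex I gave a log2 ratio from -0.13 without L2 to 0.32 without L1. The causes were not tested. The log2 ratio of mt-Nd6 to the heavy-strand genes, Lncenc1-high over Lncenc1-low, was -0.79, and -1.01 to -0.57 with 1 library left out. It was -0.80 over genes with no copied stretch, and, in alternatives chosen after seeing the data, -0.71 without mt-Co1 and -0.84 as a mean of log2 values. Scaling by library totals moved the median of all genes tested to -0.06. The share without ribosomal RNAs gave no separate value, since these were not analysed here. No paired analysis was possible because the recovered libraries carry no replicate number. Depth limits mt-Nd4l most, which had 144 and 116 reads in L1 and L2, against 561 and 175 in H1 and H2.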
